A study of Mus musculus with 4 samples.

Results

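The Ikaros family loci were the genes *Ikzf1* to *Ikzf5* with 30 kb on each side of the annotated gene body, and their members were the accessible regions that overlapped these 5 windows. Regions were unions of overlapping WT and KO peaks (at least 1 bp), and 34 of the 45475 regions on the 19 autosomes and chromosome X lay in the windows. They held 27 peaks of the WT list and 30 of the KO list. Open DNA was mapped by ATAC-seq, with a transposase that cuts and tags it, in adult C57BL/6 bone marrow hematopoietic stem cells (HSCs) sorted as LSK CD150+CD34-CD48- by the labels (the methods for ATAC-seq do not list CD34), with 5000 cells per library. The WT mice were Med23floxp/flowp without cre, and the KO mice were Mx1-cre;Med23floxp/flowp, in which Med23, a Mediator subunit, is lost once poly(I:C) switches on the interferon-driven Mx1 promoter. The deletion was therefore not limited to HSCs, and the cre transgene was carried by the KO mice alone. The labels name 2 replicates per genotype but the same peak list for both, so that 1 list stood for each genotype, there was no spread between replicates, and no difference below carries a p-value.

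Ikaros family proteins are zinc-finger factors that bind DNA through N-terminal fingers and pair with each other through C-terminal fingers. They recruit the NuRD, Sin3 and CtBP repressor complexes as well as chromatin remodelers, and their best known role is in the making of lymphocytes. *Ikzf1* encodes Ikaros, needed for the lymphoid lineages and present from the stem cell stage on. *Ikzf2* encodes Helios, known from regulatory T cells and also present in HSCs, *Ikzf3* encodes Aiolos of maturing B cells, *Ikzf4* encodes Eos, and *Ikzf5* encodes Pegasus, the most distant relative of the group.

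Of the 34 regions, 23 were shared by the lists, 4 were called in WT alone and 7 in KO alone. Over all regions these shares were 64.8%, 18.1% and 17.2%, against 67.6%, 11.8% and 20.6% in the family. *Ikzf1* held 12 regions (7 in both lists, 2 WT only, 3 KO only), *Ikzf2* held 10 (7, 0 and 3), *Ikzf3* held 3 (2, 1 and 0), *Ikzf4* held 6 (4, 1 and 1) and *Ikzf5* held 3, all in both lists. By the position of the stronger summit, 4 regions lay at the promoter of a member gene (within 1000 bp of a transcript start), 8 at the promoter of a neighboring gene and 22 away from promoters. The 4 own promoters were all called in both lists, and the *Ikzf3* promoter was called in neither.

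The sequences around the summits on which the description turns are given below, from GRCm38.p6 (mm10), plus strand. Capitals mark matches to 8 fixed motifs, searched on both strands: for the GATA factors AGATAA and with equal weight TGATAA, for RUNX factors TGTGGT, for ETS factors CCGGAAG, for PU.1 itself GAGGAAGT, for AP-1 factors TGANTCA, for E-box proteins CAGCTG and with equal weight CAGATG, for Ikaros proteins TGGGAA and for C/EBP proteins TTGCNNAA. The ETS, PU.1 and Ikaros letters share GGAA but differ in the base before it, so they cannot match at the same GGAA. In 200 bp around the summit, these motifs were held by 14.6%, 20.5%, 5.4%, 6.72%, 8.11%, 24.7%, 15.5% and 7.91% of all regions, in the same order. A match is a description of the letters and not a bound site. The first sequences are the start regions of *Ikzf2* and *Ikzf5*, both called promoters of the family. Their summits lie outside transcribed leader sequence, as does that of the *Ikzf4* promoter, whose stretch is not printed.
Ikzf2 promoter, chr1:69687246-69687445: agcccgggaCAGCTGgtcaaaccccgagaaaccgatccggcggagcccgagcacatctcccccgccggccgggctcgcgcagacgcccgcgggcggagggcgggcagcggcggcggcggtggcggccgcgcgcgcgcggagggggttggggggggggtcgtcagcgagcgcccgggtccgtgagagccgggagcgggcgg
Ikzf5 promoter, chr7:131410522-131410600: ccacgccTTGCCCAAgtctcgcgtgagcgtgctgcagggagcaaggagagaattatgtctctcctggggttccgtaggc
The *Ikzf2* stretch began at the base before the annotated start and held 35 CpG at 81.0% GC with 1 E-box. The *Ikzf5* stretch is the whole 79 bp gap between *Ikzf5* and the divergent gene *Acadsb*, and it held 1 C/EBP match.

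The next sequences are the region with the largest KO to WT ratio of the family, at the start of *Gm29114* beyond the 3′ end of *Ikzf2*, and the *Ikzf2* intron site with the highest pileup away from promoters.
Gm29114 promoter, chr1:69513642-69513841: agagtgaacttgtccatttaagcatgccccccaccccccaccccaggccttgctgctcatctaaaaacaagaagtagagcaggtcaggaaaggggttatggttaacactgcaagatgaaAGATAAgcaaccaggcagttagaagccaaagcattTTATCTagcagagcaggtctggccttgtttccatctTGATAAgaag
Ikzf2 intron, +49.2 kb, chr1:69637974-69638173: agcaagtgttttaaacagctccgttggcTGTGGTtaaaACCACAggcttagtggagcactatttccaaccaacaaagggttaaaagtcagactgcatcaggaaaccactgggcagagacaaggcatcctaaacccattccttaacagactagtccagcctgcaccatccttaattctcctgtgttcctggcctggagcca
The *Gm29114* stretch held 3 GATA matches, on both strands. Among all 45475 regions, 70 (0.154%) held at least 3 GATA matches in 200 bp, and this was the 1 family region among them. The *Ikzf2* intron stretch held 2 RUNX matches on opposite strands, 4 bases apart, and 3.1% of all regions held at least 2. The limits of 3 and 2 are the counts seen in these stretches. The shares therefore describe the letters and are no test of either site.

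The last sequences are the strongest site upstream of *Ikzf1*, the *Ikzf1* sites past 1.5-fold in either direction, and the WT-only site beyond the 3′ end of *Ikzf3*.
Ikzf1, -27.7 kb, chr11:11657214-11657413: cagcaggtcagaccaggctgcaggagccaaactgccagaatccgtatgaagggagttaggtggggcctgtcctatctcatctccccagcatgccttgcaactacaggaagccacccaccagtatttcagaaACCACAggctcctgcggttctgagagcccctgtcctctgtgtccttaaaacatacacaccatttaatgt
Ikzf1, -17.3 kb, chr11:11667639-11667838: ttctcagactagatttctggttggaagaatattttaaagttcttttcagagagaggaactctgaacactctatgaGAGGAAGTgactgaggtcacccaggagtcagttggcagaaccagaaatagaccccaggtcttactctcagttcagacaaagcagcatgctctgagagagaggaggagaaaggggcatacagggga
Ikzf1 intron, +45.3 kb, chr11:11730162-11730361: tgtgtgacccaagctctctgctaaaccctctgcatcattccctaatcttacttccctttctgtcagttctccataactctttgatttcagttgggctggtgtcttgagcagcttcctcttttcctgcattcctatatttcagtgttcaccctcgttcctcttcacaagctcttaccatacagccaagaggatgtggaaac
Ikzf3, +88.1 kb, chr11:98457846-98458045: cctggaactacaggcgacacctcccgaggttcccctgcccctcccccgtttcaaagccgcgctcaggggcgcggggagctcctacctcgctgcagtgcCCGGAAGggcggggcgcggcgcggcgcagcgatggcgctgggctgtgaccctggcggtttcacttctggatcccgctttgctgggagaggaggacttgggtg
The upstream *Ikzf1* sites held 1 RUNX and 1 PU.1 match, and the intron site at +45.3 kb held none of the 8 motifs. The *Ikzf3* site, outside any annotated gene, held 19 CpG at 70.0% GC and 1 ETS match.

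Values are summit pileups, the number of reads stacked at the peak's highest point (whether the caller stacked extended reads or whole fragments is not stated), recovered from the authors' fold enrichment and −log10 p. The KO to WT ratio is pileup over the genome-wide background of each list, on the log2 scale, relative to the median of all 29460 regions called in both lists. Intervals are exact 95% binomial intervals of the pileup pair and cover counting error only. Over all shared regions the relative ratio had an SD of 0.42, 7.57% of regions were over 1.5-fold higher in KO and 7.91% over 1.5-fold lower. The interval lay wholly above 0 for 1.91% and wholly below 0 for 1.48%.

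The own promoters of 4 family members were open in both genotypes, with no pileup ratio past 1.5-fold. The *Ikzf2* promoter, 54 bp from a transcript start at chr1:69686351-69688195, had a pileup of 57 in WT and 58 in KO. The relative log2 ratio was −0.05 (−0.61 to 0.50), and the summits lay 3 bp apart. These were the highest own-promoter pileups of the family in both lists, at percentiles 77.4 and 76.4 of the protein-coding genes that had a promoter peak. The *Ikzf5* promoter, 37 bp from its start and shared with *Acadsb* at chr7:131409919-131411239, had 43 in WT and 50 in KO (relative log2 0.14, −0.48 to 0.76). The *Ikzf1* promoter at chr11:11685094-11686677, 135 bp from the nearest start, had 38 in WT and 51 in KO (0.35, −0.29 to 0.99). The *Ikzf4* promoter at chr10:128645467-128646653, 344 bp from the nearest start, had 13 in WT and 14 in KO (0.03, −1.17 to 1.24), at percentiles 10.9 and 13.1. The *Ikzf1* and *Ikzf4* regions also lay within 1000 bp of starts of the noncoding genes *Gm11999* and *Gm26876*, so that only the *Ikzf2* promoter belonged to a member alone. None of the 4 ratios passed 1.5-fold, and each of the 4 intervals held 0. On the authors' fold enrichment, relative to its own median, the log2 ratios were 0.57 at *Ikzf1* and 0.27 at *Ikzf2*. They were 0.18 at both *Ikzf4* and *Ikzf5*. The *Ikzf1* value was just under the 1.5-fold limit of 0.585. Local background was 6.23 (WT) and 4.42 (KO) at the *Ikzf1* promoter and 8.04 and 5.36 at the *Ikzf2* promoter. The *Ikzf2* promoter peak spanned 1845 bp (WT) and 1228 bp (KO), and the *Ikzf1* promoter peak 1584 bp and 1223 bp. The *Ikzf5* peak spanned 1321 bp and 1115 bp, so that 3 of the 4 own-promoter peaks were wider in WT, and the *Ikzf4* peak, at 862 bp and 1162 bp, was wider in KO.

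The study designed the ATAC-seq comparison to ask whether open chromatin changed on Med23 loss, and *Ikzf2* is among the genes whose transcripts it followed. RNA was not analysed here. At *Ikzf2*, on the minus strand at chr1:69531214-69687245, the 7 peaks of WT all had a KO partner, and the KO list had 3 further peaks. In the introns, the site at +31.8 kb had 18 in WT and 20 in KO, and the site at +80.2 kb had 11 and 13. The site at +49.2 kb had 23 and 20, and that at +95.8 kb had 10 and 8. The relative log2 ratios of these 4 intron sites lay between −0.40 and 0.16, and all 4 intervals held 0. The intron sites were therefore not separable between the genotypes at these pileups.

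Beyond the 3′ end, 2 regions lay in *Gm29114*, an antisense gene that starts outside *Ikzf2* and runs into it on the opposite strand. Its promoter region, at chr1:69512958-69514249 and 173.5 kb from the 5′ end of *Ikzf2*, had a pileup of 32 in WT and 62 in KO. Its local background was 3.02 (WT) and 2.89 (KO), and the peak was wider in WT (1280 bp) than in KO (1025 bp). The relative log2 ratio was 0.88 (0.24 to 1.54), at percentile 97.8 of all shared regions and with the only interval of the 23 family regions that did not hold 0. The second *Gm29114* site, in its intron at +158.4 kb and 2075 bp beyond *Ikzf2*, had 14 in WT and 17 in KO (0.20, −0.91 to 1.33). Of the regions in the *Ikzf2* window, the one past 1.5-fold was thus at the start of the antisense gene and 16965 bp outside the *Ikzf2* gene body.

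The 3 KO-only peaks of *Ikzf2* had pileups of 18, 11 and 7. The highest lay 1.7 kb upstream of the 5′ end, close to the promoter peak, over a local background of 5.15 and with a −log10 q of 3.44. Those in introns at +17.1 kb and +127.7 kb had −log10 q of 6.11 and 2.48. A peak list gives no signal where no peak was called, so no WT value can be set beside them. Among all regions whose higher pileup was 6 to 9, 8.46% were called in both lists, and the share was 41.5% at 10 to 14 and 71.3% at 15 to 19.

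**Figure D1:**
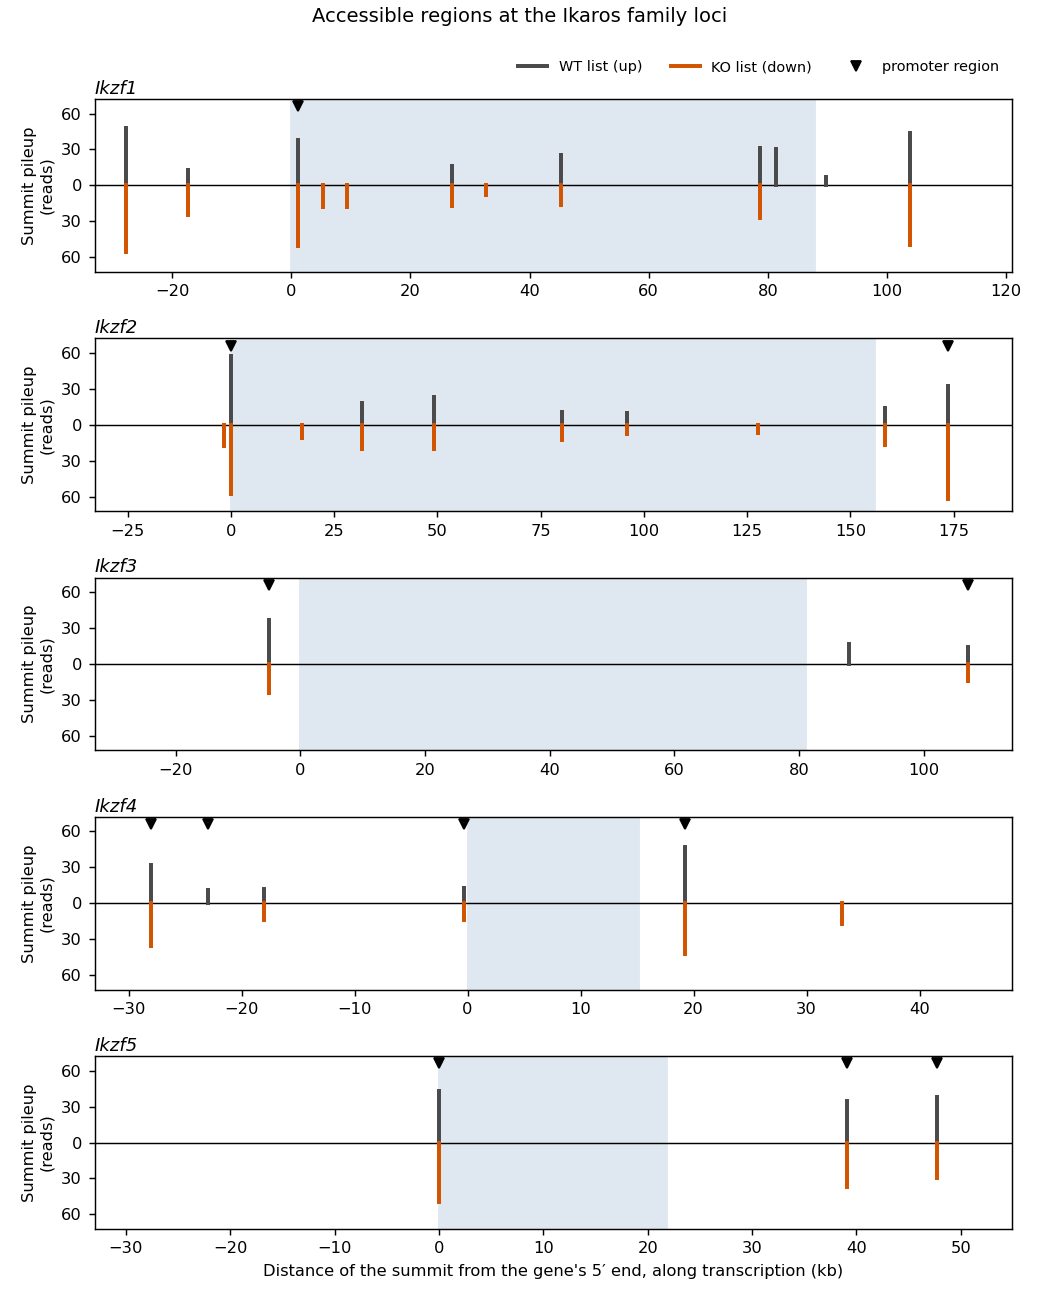
Summit pileup (reads) of every region at the 5 genes, WT upward and KO downward, against the distance of the summit from the gene's 5′ end in kb along transcription; gray-blue bands are gene bodies and triangles mark promoter regions. The own promoters of Ikzf1, Ikzf2, Ikzf4 and Ikzf5 have bars in both directions, the body of Ikzf3 is empty, and 7 regions have a KO bar alone.

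*Ikzf1*, on the plus strand at chr11:11685003-11772926, had the most regions of the family. Its shared sites away from promoters had ratios on both sides of 0, and each of their intervals held 0. Upstream, inside the transcript *Gm11999* that runs the other way, the site at −27.7 kb had 48 in WT and 56 in KO (0.14, −0.44 to 0.73). The site at −17.3 kb, chr11:11667393-11668332, had 13 in WT and 25 in KO. Its relative log2 ratio was 0.87 (−0.16 to 1.96), past 1.5-fold with an interval that held 0. Inside the gene, the intron site at +45.3 kb, chr11:11730128-11731032, went the other way with 25 in WT and 16 in KO (−0.72, −1.73 to 0.24). The KO peak at that site was wider, 905 bp against 392 bp.

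Other *Ikzf1* intron sites were closer between the lists. The site at +27.0 kb had 16 in WT and 17 in KO, and the site at +78.6 kb had 31 and 27. The site at +103.8 kb, in an exon of the neighbor *Fignl1*, had 44 and 50 on narrow peaks of 396 bp and 408 bp, and it stood at percentiles 95.3 and 95.1 of its list by fold enrichment. The relative log2 ratios of these 3 sites lay between −0.28 and 0.11.

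The strongest region of the family called in 1 list only was an *Ikzf1* intron site at +81.3 kb, chr11:11766189-11766433, with a WT pileup of 30 over a local background of 3.81. Of all regions with a higher pileup of 30 to 39, 96.6% were called in both lists, and 5 of the 6 family regions of that height were. Its width was 245 bp, below the narrowest peak of the KO list (249 bp), while the narrowest WT peak was 224 bp. Whether this width bears on the missing KO call was not tested. The other WT-only region, at +89.7 kb and 1741 bp beyond the gene, had a pileup of 7. The 3 KO-only intron peaks were at +5.4 kb (18), +9.4 kb (18) and +32.7 kb (8). The first 2 of these stood over local backgrounds of 5.33 and 3.14, against a median of 1.67 over the KO list.

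**Figure D2:**
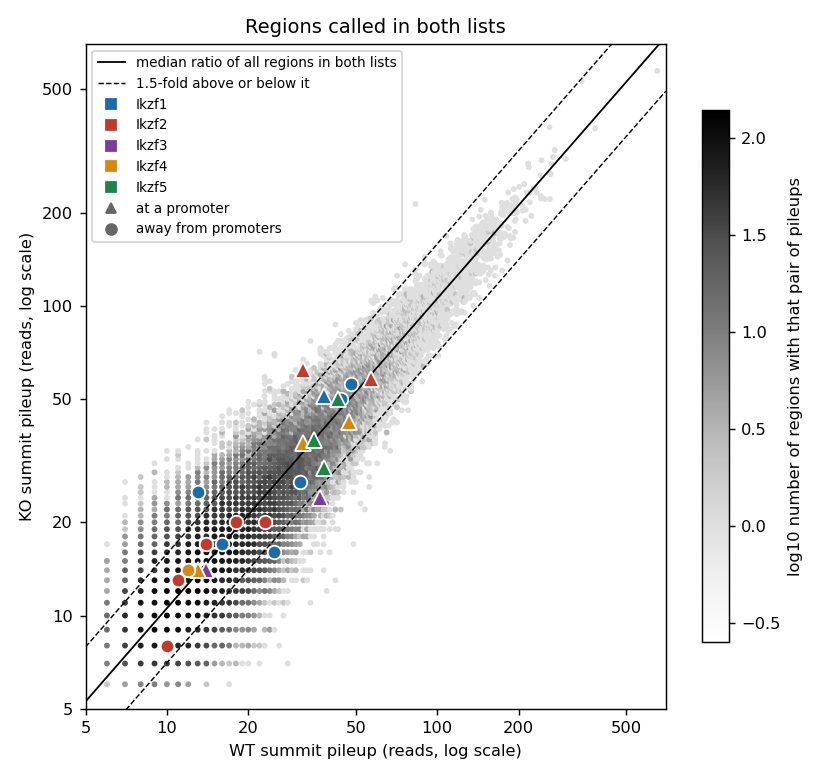
KO against WT summit pileup (reads, log axes) of all 29460 regions called in both lists, gray by number of regions with each pair, with the 23 family regions in color, triangles at promoters and circles elsewhere. Of the family regions, 2 lie above the upper 1.5-fold line (32 and 62, 13 and 25) and 2 below the lower one (25 and 16, 37 and 24).

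*Ikzf3* had no peak in its gene body or at its start in either list. Its 1000 bp around the 5′ end had a CpG observed to expected ratio (the number of CpG against that from the C and G content) of 0.911, higher than at 92.5% of protein-coding genes. Of the 1965 genes within 0.05 of that ratio, 91.9% had a promoter peak in both lists. *Ikzf2* at 1.06 and *Ikzf5* at 0.789 had shares of 95.5% and 89.8% among like genes, and both had a promoter peak. *Ikzf1* at 0.455 and *Ikzf4* at 0.444 had like-gene shares of 57.3% and 55.5%, and both were called in both lists too. A promoter below the caller's limit is not listed, so absence from both lists is not a measured 0.

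The 3 regions in the *Ikzf3* window lay outside the gene. The nearest, at the start of *Zpbp2* and 5.1 kb upstream of the *Ikzf3* 5′ end (chr11:98550768-98551743), had 37 in WT and 24 in KO. Its relative log2 ratio was −0.70 (−1.51 to 0.08), past 1.5-fold with an interval that held 0. On the authors' fold enrichment the ratio of this region was −0.32, with a local background of 2.65 in WT and a lower one in KO. The region at the *Mien1* and *Gm12352* starts, 107.1 kb from the 5′ end, had 14 in each list. The WT-only region at +88.1 kb, 6599 bp beyond the 3′ end at chr11:98457528-98458303, had a pileup of 17.

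*Ikzf4* and *Ikzf5* are the shortest genes of the family, and promoters of neighbors made up 3 of the 6 regions in the *Ikzf4* window and 2 of the 3 in the *Ikzf5* window. At *Ikzf4* the *Rps26* promoter, of a ribosomal protein gene, had 47 in WT and 42 in KO, and the *Suox* promoter, of sulfite oxidase, had 32 and 36. Both stood well above the *Ikzf4* promoter itself (13 and 14). The *Gm49782* promoter was called in WT only (11), the intron of that gene had 12 and 14, and an intergenic site at +33.1 kb was called in KO only (17, on a peak of 271 bp). At *Ikzf5* the promoters of *Pstk* (35 and 37) and *2310057M21Rik* (38 and 30) were the only regions beside the gene's own start. The relative log2 ratios of the *Ikzf4* window lay between −0.24 and 0.14 and those of the *Ikzf5* window between −0.42 and 0.14.

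Over the 23 shared regions the median relative log2 ratio was 0.03, against 0 by construction over all shared regions, with a range of −0.72 to 0.88 and 14 of 23 above 0. At 1.5-fold, 2 regions were higher in KO and 2 lower, beside the 7.57% and 7.91% of all shared regions. The medians per gene were 0.11 at *Ikzf1*, 0.07 at *Ikzf2*, −0.39 at *Ikzf3* (2 regions), 0.06 at *Ikzf4* and 0.00 at *Ikzf5*. By the raw pileup, 15 of the 23 were higher in KO and 1 was equal, beside 54.4% of all shared regions higher in KO. By fold enrichment 19 of the 23 were higher in KO, beside 77.6% of all shared regions, and relative to its own median 14 of the 23 were. The local background was lower in KO at 21 of the 23, beside 81.7% of all shared regions.

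**Figure D3:**
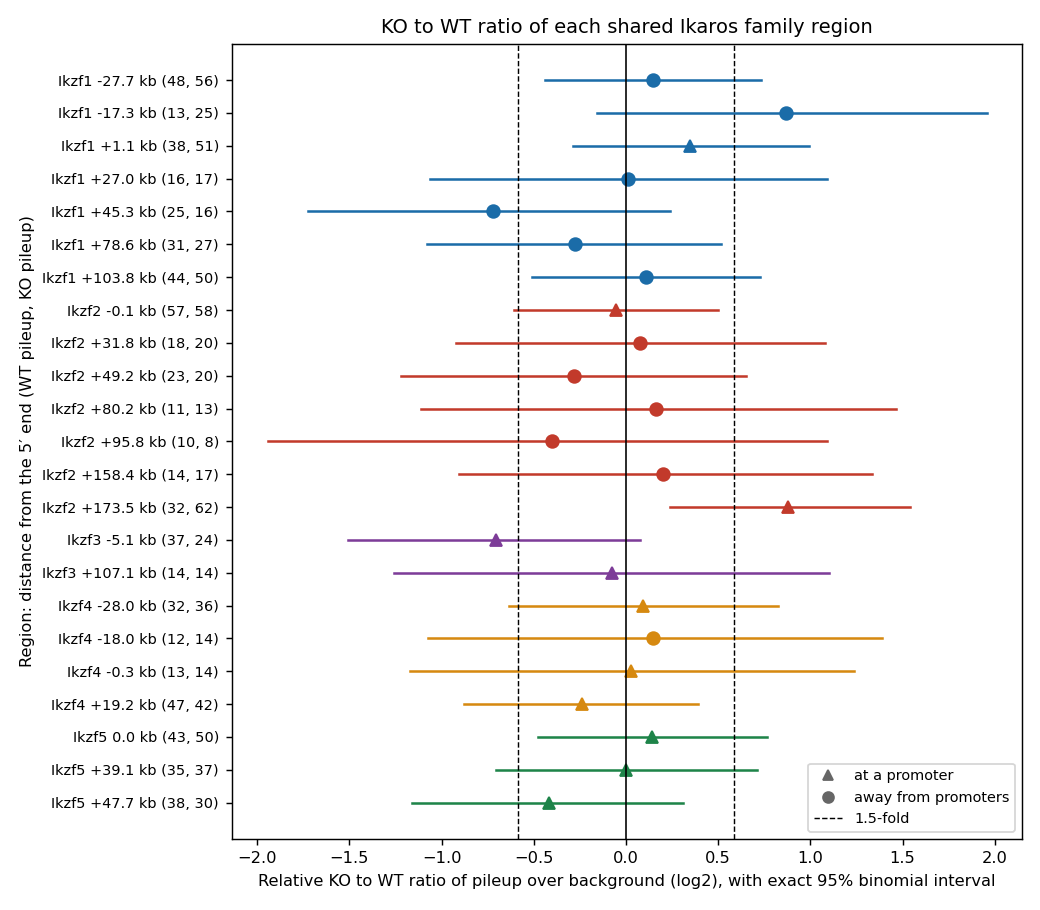
Relative log2 KO to WT ratio of each of the 23 shared family regions with its exact 95% binomial interval; labels give the distance from the 5′ end and the WT and KO pileups, dashed lines are 1.5-fold. The interval of the Ikzf2 window's region at +173.5 kb (0.24 to 1.54) is the one that does not cross 0.

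Which regions had a partner in the other list went with the site class and the height. At promoters 11 of the 12 family regions (91.7%) were called in both lists, and 83.9% of all promoter regions were. Away from promoters the counts were 12 in both, 3 WT only and 7 KO only, or 54.5%, 13.6% and 31.8%. Over all such regions the shares were 54.0%, 23.6% and 22.5%. Among the 17 regions in introns 11 were shared, against 53.6% of all intronic regions, and none of the 4 intergenic ones was, against 54.0%. The 11 regions called in 1 list had a median pileup of 17 (7 to 30), and the shared ones had a median higher pileup of 31. In 10 of the 11 the pileup was under 20, and 5 of the 11 were narrower than 300 bp, as was none of the shared family regions in either list. Over all regions, 31.9% of WT-only and 25.6% of KO-only peaks were narrower than 300 bp, against 6.76% and 4.85% of shared ones. Pileup and width thus moved with the calls in 1 list, and their part in those calls was not tested.

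The family regions held the PU.1 motif more often than regions at large, by count alone. It was in 7 of 34 (20.6%, against 6.72% of all), at *Ikzf1* −17.3, +9.4 and +78.6 kb, at the *Ikzf2* promoter region and its introns at +31.8 and +80.2 kb, and at *Ikzf4* −18.0 kb. PU.1 is a lineage factor of myeloid and early B cells. Away from promoters it was in 6 of 22, against 8.64% of all such regions, and within 100 bp it was in 4 of 34 (11.8%, against 4.51%). The Ikaros motif was in 8 of 34 (23.5%, against 15.5%). These were 1 *Ikzf1* intron site at +78.6 kb, 2 *Ikzf2* regions at −1.7 and +158.4 kb, 3 *Ikzf4* regions with its own promoter among them, and 2 *Ikzf5* neighbor promoters. GATA was in 5 (14.7%), RUNX in 6 (17.6%), E-box in 9 (26.5%), ETS in 3 (8.82%) and C/EBP in 2 (5.88%), and AP-1 in none, against the shares given with the sequences. Of the 5 GATA regions, 4 were in the *Ikzf2* window. The Ikaros share was 8.82% within 100 bp (7.66% of all) and 50.0% within 400 bp (30.4% of all). Motifs were not tested, since the regions of 1 window are neighbors and not replicates.

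By bases under peaks, the family genes did not differ in one direction when all called peaks were counted. Counting each gene with its 30 kb flanks, WT and KO peaks covered 5890 and 7212 bp at *Ikzf1*, a difference of 1322 bp at percentile 97.6 of 21755 protein-coding genes. At *Ikzf2* they covered 6225 and 6636 bp (411 bp more in KO, percentile 81.6). At *Ikzf3* peaks covered 2542 bp (WT) and 1433 bp (KO), a difference of −1109 bp at percentile 4.36. At *Ikzf4* it was 4067 and 3641 bp (−426 bp) and at *Ikzf5* 3673 and 3509 bp (−164 bp). The median gene differed by 0 bp. These differences were not scaled to window length or number of peaks. By number of peaks *Ikzf1* stood at percentiles 97.8 (WT) and 98.4 (KO), and *Ikzf3* at 56.6 and 40.7. The part of peak number in the ranks was not tested. When only peaks whose −log10 q reached 10 were kept, the *Ikzf1* difference was −124 bp and the *Ikzf2* difference −351 bp. The larger cover of KO at both genes was thus not seen among the stronger peaks. Under the same limit the *Ikzf3* difference shrank to −86 bp, and those of *Ikzf4* and *Ikzf5* were −67 bp and −164 bp. *Ikzf1* and *Ikzf4* were dense in peaks, with 6.08 and 6.65 per 100 kb in WT (6.76 and 6.65 in KO), against 2.75 at the median gene (2.70 in KO). *Ikzf3* had 2.13 and 1.42, at percentiles 41.1 and 30.8.

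**Figure D4:**
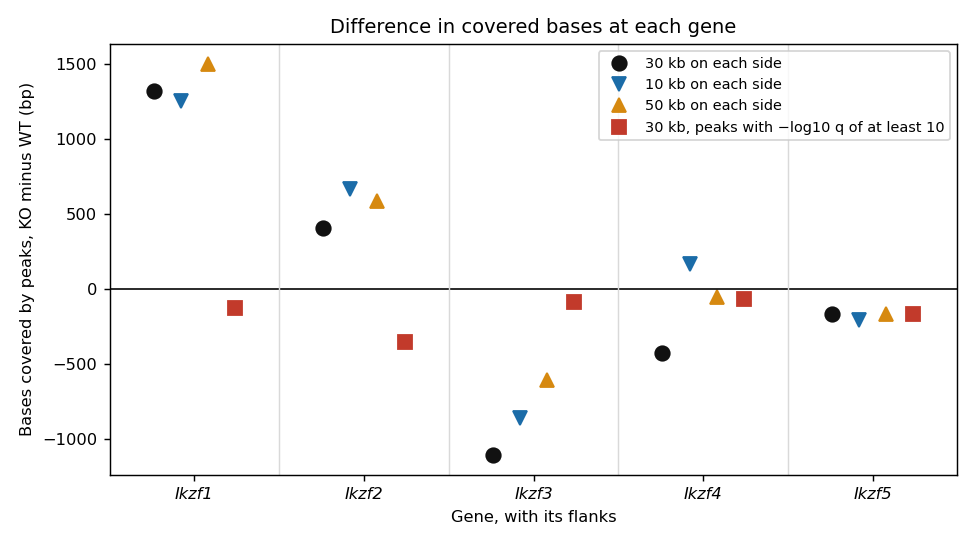
Bases covered by peaks at each gene and its flanks, KO minus WT in bp, for 3 flank widths and, at 30 kb, for peaks whose −log10 q reached 10. Ikzf1 and Ikzf2 lie above 0 for each flank width and below 0 for the stricter peaks, while Ikzf3 and Ikzf5 lie below 0 in all 4.

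Genes that work with the family were open at nearly every start. Of 16 NuRD, Sin3, CtBP and BRG1 partner genes, 15 had a promoter peak in both lists. *Mta1*, a NuRD subunit, had a promoter peak in KO only (16). Over all protein-coding genes, 58.1% had a promoter peak in both. Among genes with a CpG ratio near that of *Ikzf5* or *Ikzf2*, the share was 89.8% or 95.5%. The CpG content of the partner starts was not compared. The median relative log2 ratio of the 15 was 0.04. *Ctbp1*, a corepressor, had 44 in WT and 22 in KO (−1.08) and was the only gene of the 15 past 1.5-fold. Among all shared promoter regions, 7.97% were over 1.5-fold lower in KO and 3.94% higher. *Chd4*, the NuRD remodeler, had 18 and 21, and *Smarca4*, which encodes BRG1, had 38 and 28. The 5 genes of the cereblon ubiquitin ligase, through which thalidomide-like drugs degrade Ikaros and Aiolos, were open in both lists, with *Crbn* at 55 and 51.

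Of 16 lymphoid genes that Ikaros proteins are known to regulate, 6 had a promoter peak in both lists, 1 in WT only and 9 in neither, beside 58.1% in both and 36.2% in neither over protein-coding genes. *Flt3*, the cytokine receptor of early lymphoid progenitors, had 58 in WT and 36 in KO (−0.77). It was the only gene of the 6 past 1.5-fold, beside 7.97% of all shared promoter regions over 1.5-fold lower in KO. *Il7r*, the interleukin receptor of lymphoid precursors, had 13 in WT and no KO peak. *Vpreb1*, a part of the surrogate light chain, had 29 and 40 (0.39), and *Pax5*, the B cell commitment factor, had 27 and 23 (−0.31). The median of the 6 was −0.22, against −0.08 over all shared promoters of protein-coding genes. The recombinase genes *Rag1* and *Rag2* and the polymerase gene *Dntt* were among the 9 with none. Accessibility of a promoter is not expression.

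Promoters of the sorted cell's markers were open in part. Of 11 HSC markers 7 had a promoter peak in both lists, *Kit* with 28 and 37 and *Mecom* with 56 and 60. Over all protein-coding genes the share was 58.1% in both lists and 36.2% in neither. *Fgd5* had 10 and 16 (0.60) and was the only gene of the 7 past 1.5-fold. Of all shared promoter regions, 3.94% were over 1.5-fold higher in KO. *Hoxa9* had a promoter peak in WT only (16). The promoters of *Ly6a*, *Procr* and *Slamf1* had none in either list, although *Ly6a* and *Slamf1* encode the sort markers Sca-1 and CD150. Promoters of the mature lineage markers *Cd3e* and *Elane* had no peak in either list. The deletion of Med23 itself could not be checked from peak lists.

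The window of 30 kb set which neighbors were counted. The outermost region inside the *Ikzf1* window lay 27.1 kb from the gene (48 and 56), and the first one outside lay at 35.7 kb with 86 in WT and 84 in KO. For *Ikzf2* these were at 17.0 kb (32 and 62) and at 31.5 kb, a KO-only peak of 7. For *Ikzf3* the first region outside lay at 35.7 kb (38 and 40), for *Ikzf4* at 40.3 kb (21 and 13) and for *Ikzf5* at 129.6 kb (11 and 17).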

How the data were processed

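ATAC-seq libraries of 2 WT and 2 KO samples were reduced by the authors to 1 MACS2 peak list per genotype, and whether replicates were pooled is not stated. The authors trimmed reads with Trim Galore, mapped them with Bowtie2 (mm10), used Picard against duplicate and mitochondrial reads, and called peaks without a fragment model. Tool versions are not given in the sources used here. Each deposited list holds, per peak, the authors' fold enrichment ratio of summit pileup over local background, −log10 p and −log10 q, and a display score, which was not used. Summits in the separate deposited lists were identical in −log10 q and position.

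WT held 37919 peaks and KO 37639, of which 37887 and 37615 lay on the 20 chromosomes used. Reads per sample are unknown. Pileup and local background were solved from fold enrichment and −log10 p under the caller's Poisson model, and a whole-number pileup matched within 0.001 for 100.0% and 99.99% of peaks (tested on simulated data). The lowest pileup was 6 in both lists, with medians of 18 and 19. The genome-wide background was the median of the 1000 smallest local backgrounds (1.194 in WT, 1.125 in KO). Ratios have no pseudocount, and the median log2 ratio before centering was 0.16. With 1 list per genotype no test was run, and a difference was named past 1.5-fold. GENCODE M21 gave genes and starts. Python 3.11.15, pandas 2.3.3 and SciPy 1.17.1 were used.

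All members were described, with each own promoter, the strongest site away from promoters, the largest ratio in each direction and the strongest region in 1 list. Sequences were printed for some of these. Some items among the markers and sequences are not reported here. The members, gene lists and motifs were chosen with earlier results of these data known. Alternatives changed the −log10 q minimum, window, overlap rule, ratio scale, promoter width and motif window.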

Additional observations from a re-analysis of the deposited data

How the results depend on the processing

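No paired analysis was possible because 1 peak list stood for each genotype, and leaving out a replicate could not be run for the same reason. Of 84 values recomputed under other settings, 49 stayed within 1.5 times the value given (or, for the median ratio, within its interval), 32 moved and 3 reversed. With peaks of −log10 q of at least 10, the family had 15 WT peaks, 16 KO peaks and 13 shared, 2 WT-only and 3 KO-only regions, 1 region past 1.5-fold each way, and covered-base differences of −124 bp at Ikzf1 and −351 bp at Ikzf2 (both reversed), −86 bp at Ikzf3 and −67 bp at Ikzf4. At a −log10 q of at least 5, WT-only regions numbered 2 and KO-only 4. With 10 kb on each side there were 17 WT peaks, 14 shared regions, 0 regions past 1.5-fold higher in KO, a cover difference of 666 bp at Ikzf2 and one of 166 bp, reversed, at Ikzf4. With 50 kb the cover differences were −605 bp at Ikzf3 and −50 bp at Ikzf4. With summits required within 100 bp, WT-only regions numbered 8 and KO-only 11. Without centering, the median log2 ratio of pileup over background was 0.19 with 0 regions past 1.5-fold lower, that of raw pileup was 0.11 with 2, and on the authors' fold enrichment 1 was. Within 100 bp, motif counts were 3 for GATA, 4 for PU.1, 5 for E-box, 3 for Ikaros and 1 for C/EBP. Within 400 bp they were 8 for GATA, 10 for RUNX, 3 for AP-1, 17 for Ikaros and 4 for C/EBP. By construction the stricter settings hold fewer peaks. The Gm29114 promoter ratio was 0.95 on raw pileup and 0.72 on fold enrichment. Read depth is unknown, and a pair of pileups of 18 and 20 already has a counting interval from −0.92 to 1.08.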
